A study of Mus musculus with 3 samples.

Results

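The 10 imprinted genes Snrpn, Kcnq1ot1, Peg3, Mest, Peg10, Plagl1, Impact, Nnat, Zrsr1 and H19 were examined in reduced-representation bisulphite sequencing (RRBS) libraries of mouse embryonic stem (ES) cells. RRBS sequences bisulphite-treated MspI fragments, in which an unmethylated cytosine is read as thymine, and so counts methylated and unmethylated reads at each CpG. CpGs were taken within 5000 bp of any annotated transcript start of these genes if they had more than 10 reads. For 9 of the genes this gave 274 of the 970329 such CpGs in the wild-type (WT) library, 229 of 814188 in the Dnmt3a KO library and 155 of 431923 in the Dnmt TKO library. The study compared 1 sample per genotype, called a library here although the protocol made separate libraries for 2 ranges of insert size, so no difference between genotypes has a replicate check. WT cells came from blastocysts of mixed 129-C57Bl/6 background and were grown on feeder cells or on gelatine. The Dnmt3a KO cells, also labelled mixed 129-C57Bl/6, carried a CRISPR/Cas9 deletion in the Dnmt3a gene that removes both protein isoforms, and were grown on gelatine. If the WT cells of this library grew on feeders, culture and genotype cannot be told apart between WT and Dnmt3a KO. The Dnmt TKO cells lack Dnmt1, Dnmt3a and Dnmt3b, were of strain J1 and were grown on gelatine, so that genotype and strain cannot be told apart in this library. All cells received serum and LIF, and the number of clones behind a library is not given in the sources used here.

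At an imprinted gene, the copy from one parent is expressed and the other is silent, and the difference goes back to DNA methylation that was set in the egg or in the sperm. Such a germline mark leaves one allele methylated and the other unmethylated, so a cell population that keeps it reads at an intermediate level. DNMT3A sets germline marks, DNMT1 copies them at each cell division, and the zinc finger protein ZFP57 protects them in ES cells by binding its methylated recognition word. Snrpn, Kcnq1ot1, Peg3, Mest, Peg10, Plagl1, Impact, Nnat and Zrsr1 carry marks from the egg near their starts, whereas H19 carries a mark from the sperm, placed upstream of its start. The reads do not separate the alleles. An intermediate level can therefore stand for 1 methylated allele or for a mixture of cells.

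Kcnq1ot1 is not named in the GENCODE vM1 annotation of the mm9 build. Its start was placed by the promoter sequence that RefSeq gives on GRCm38.p6, which has 1 exact match in mm9, at chr7:150482403-150482702 on the minus strand, within an intron of Kcnq1. Its values are given separately and stay out of the sums over the 9 other genes. Each of the 10 genes had covered CpGs in WT and in Dnmt3a KO, but no CpG of Peg10 had more than 10 reads in Dnmt TKO. No CpG of Peg3 was covered in both WT and Dnmt3a KO. The following stretches show measured CpGs of 1 gene with close means in both libraries (Zrsr1), 1 that was higher in Dnmt3a KO (Nnat) and 2 that were lower (Kcnq1ot1 and Mest). They are printed from the plus strand of mm9, with the CpGs that had more than 10 reads in both WT and Dnmt3a KO in capitals. Zrsr1 is shown at chr11:22872835-22873003, in the intron and an exon of Commd1 just upstream of the Zrsr1 start. Nnat is shown at chr2:157386000-157386224, in an Nnat exon inside a Blcap intron, Kcnq1ot1 at chr7:150481393-150481533, in the Kcnq1 intron, and Mest at chr6:30685413-30685481, in a Mest intron.
Zrsr1: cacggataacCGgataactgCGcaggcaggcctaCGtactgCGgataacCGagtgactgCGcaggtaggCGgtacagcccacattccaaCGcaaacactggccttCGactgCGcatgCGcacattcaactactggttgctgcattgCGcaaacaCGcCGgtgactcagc
Nnat: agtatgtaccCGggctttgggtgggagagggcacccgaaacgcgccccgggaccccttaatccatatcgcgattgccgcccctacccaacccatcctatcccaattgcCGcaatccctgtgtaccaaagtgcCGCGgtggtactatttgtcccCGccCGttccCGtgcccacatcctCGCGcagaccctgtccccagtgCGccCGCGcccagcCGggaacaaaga
Kcnq1ot1: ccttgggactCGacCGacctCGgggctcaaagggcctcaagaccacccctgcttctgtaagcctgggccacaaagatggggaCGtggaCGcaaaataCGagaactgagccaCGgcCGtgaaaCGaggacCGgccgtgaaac
Mest: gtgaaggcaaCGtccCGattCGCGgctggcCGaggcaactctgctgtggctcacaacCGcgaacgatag
The 14 marked CpGs of Zrsr1 averaged 39.7% methylation in WT and 42.3% in Dnmt3a KO, and the 13 of Nnat 16.2% and 55.5%. The 10 marked CpGs of Kcnq1ot1 averaged 43.1% in WT and 16.2% in Dnmt3a KO, and the 6 of Mest 44.7% and 22.4%.

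WT and Dnmt3a KO cells both held intermediate methylation over most of the imprinted CpGs, in contrast to the genome as a whole. Of the 274 CpGs in WT, 189 (69.0%, exact 95% binomial interval 63.1 to 74.4) had 30 to 70% methylated reads, a range called intermediate here, as did 12.0% of all covered CpGs of this library. In Dnmt3a KO, 146 of 229 CpGs (63.8%, 57.2 to 69.99) were intermediate, beside 13.4% of all covered CpGs. By gene, the share in Dnmt3a KO ran from 0 of 8 CpGs at Mest to 47 of 52 at Zrsr1. The mean over CpGs was 41.6% in WT and 41.4% in Dnmt3a KO, whereas the mean over all covered CpGs was 28.4% in WT and 17.0% in Dnmt3a KO. In WT, 21 imprinted CpGs were under 20% and 20 were over 80%, and in Dnmt3a KO 25 and 4 were. In Dnmt TKO, 0 of 2535 reads at the 155 CpGs were methylated, which allows a level of up to 0.118%. For single genes this limit ran from 0.375% at Zrsr1 to 9.09% at Peg3. Median depth at the imprinted CpGs was 31.5 reads in WT, 17 in Dnmt3a KO and 13 in Dnmt TKO, close to that of all covered CpGs (31, 18 and 13). All intervals cover counting error only, and treat duplicate molecules from PCR and neighbouring CpGs of one read as if they were separate observations. With Kcnq1ot1, 200 of 289 CpGs in WT (69.2%) and 146 of 250 in Dnmt3a KO (58.4%) were intermediate.

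**Figure D1:**
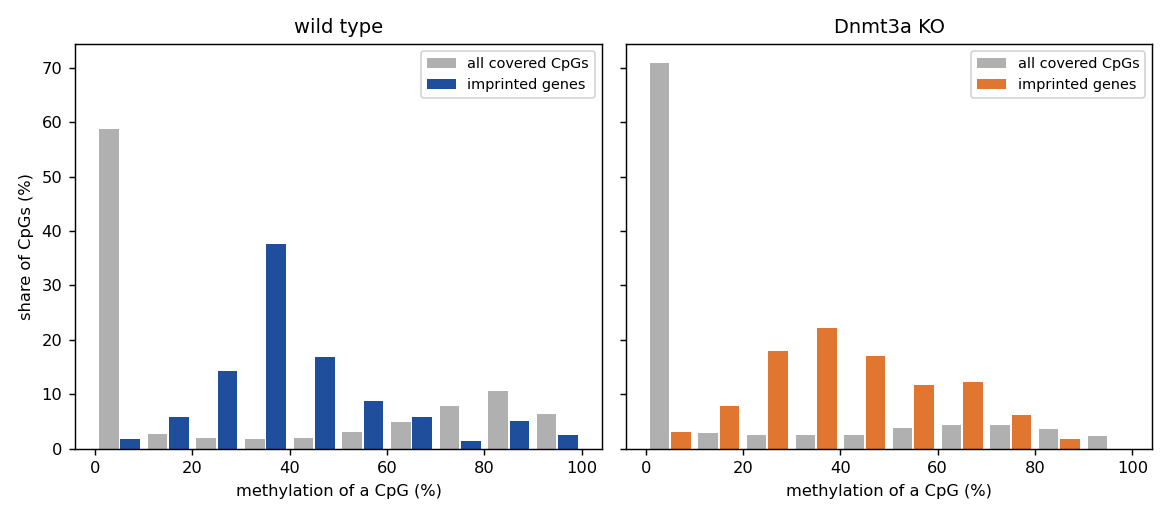
Share of CpGs (%) in steps of 10 percentage points of methylation, for all covered CpGs (grey) and for the CpGs of the 9 imprinted genes (blue, 274 CpGs in wild type; orange, 229 in Dnmt3a KO). Imprinted CpGs peak at 30 to 40% in both libraries, whereas most CpGs of each library lie under 10%.

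To compare the same sites, 178 CpGs of 8 genes that were covered in both libraries were used, out of 631561 such CpGs in all. Their mean was 38.3% in WT and 42.0% in Dnmt3a KO, differing by 3.68 percentage points (95% interval 2.04 to 5.34). All differences are Dnmt3a KO minus WT. Their intervals take the Newcombe widths of pooled reads (methylated over all reads) and are placed around the mean over CpGs. The pooled reads differed by 0.541 percentage points, outside the interval above. All shared CpGs averaged 17.8% in WT and 13.4% in Dnmt3a KO (-4.41 percentage points). The higher mean of the imprinted CpGs rested on Nnat: without it the difference was -1.50 percentage points over 137 CpGs. Of the 178 CpGs, 89 were higher and 89 lower in Dnmt3a KO, with a median difference of -0.066 percentage points. In WT 142 of them were intermediate (79.8%), in Dnmt3a KO 112 (62.9%), and 87 in both. The genes thus differed among themselves: the means of Zrsr1, Snrpn and Peg10 lay within 3 percentage points of WT, that of Plagl1 was 6.75 higher, those of Mest, H19 and Impact were lower by over 10, as was that of Kcnq1ot1, and that of Nnat was higher by over 20.

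**Figure D2:**
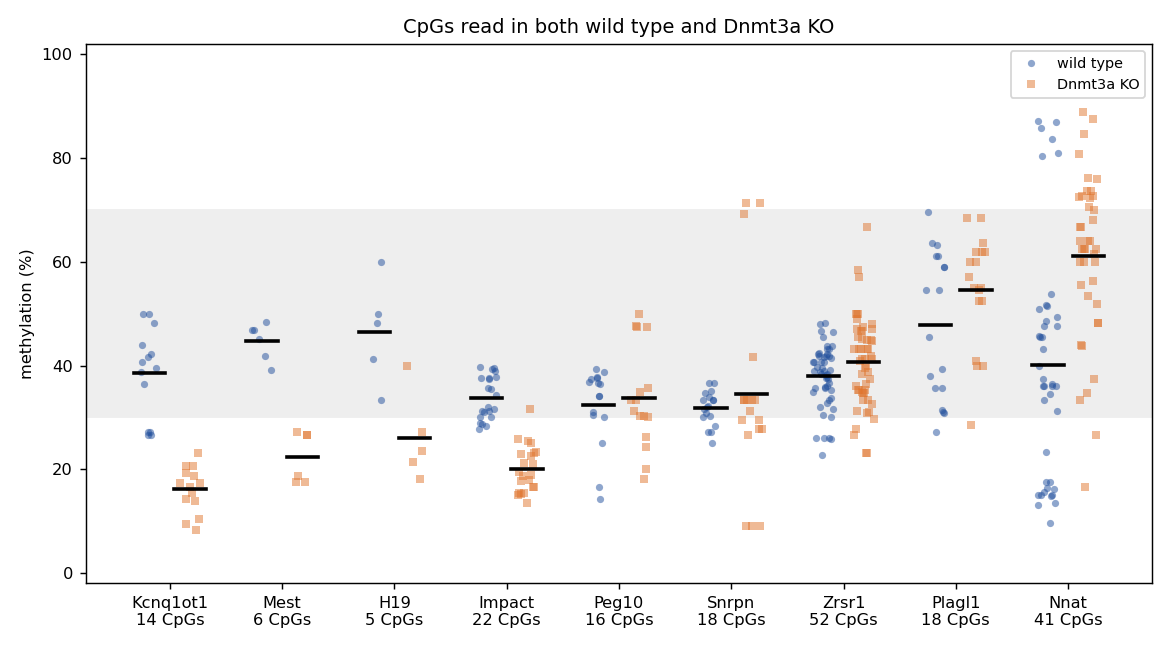
Methylation (%) of each CpG covered in both wild type (blue circles) and Dnmt3a KO (orange squares), by gene, with black bars at the means and the 30 to 70% range shaded. The means run from a difference of -22.4 percentage points at Kcnq1ot1 to 21.0 at Nnat.

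The proteins of Snrpn and Zrsr1 belong to the splicing machinery, and both genes had intermediate means in Dnmt3a KO. Zrsr1 (chr11:22873215-22876498), a retrogene inside an intron of Commd1, was the most densely measured, with 52 shared CpGs on 7 MspI fragments. Its mean was 37.9% ± 5.94 (SD over CpGs) in WT and 40.6% ± 8.61 in Dnmt3a KO, differing by 2.69 percentage points (-0.358 to 5.75). In each library 47 of the 52 CpGs were intermediate, and in Dnmt TKO 0 of 800 reads at 40 CpGs were methylated. The shared CpGs lay mainly upstream of the start, 50 of them between -1216 and -98 bp. Downstream, at 518 to 901 bp, WT read higher, at 55.8% over 12 CpGs with single CpGs from 31.6 to 83.3%, of which only 2 were covered in Dnmt3a KO (44.0% in WT against 34.8%). The shared CpG nearest to the start, at -98 bp, had 8 of 31 reads methylated in WT and 7 of 12 in Dnmt3a KO.

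At Snrpn (chr7:67127388-67285105), 18 shared CpGs on 3 fragments lay in the exon and intron around the start at position 67150042, from 72 bp upstream to 407 bp downstream. Their mean was 31.8% ± 3.28 in WT and 34.4% ± 19.01 in Dnmt3a KO, differing by 2.68 percentage points (-3.75 to 9.39). The CpG at the start itself had 21 of 60 reads methylated in WT (35%) and 6 of 18 in Dnmt3a KO (33.3%). All 18 CpGs lay between 25 and 36.7% in WT, but between 9.09 and 71.4% in Dnmt3a KO, where a CpG had 11 to 18 reads. CpGs on 1 fragment are read together, so the 18 values are not separate measurements. Of these CpGs, 14 were intermediate in WT and 8 in Dnmt3a KO. In Dnmt TKO, 0 of 89 reads at 8 CpGs were methylated.

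The zinc finger protein genes Plagl1 and Peg3 were unequally covered. At Plagl1 (chr10:12810497-12851500), which encodes a transcription factor, 18 shared CpGs averaged 47.8% ± 14.1 in WT and 54.6% ± 10.8 in Dnmt3a KO, which was 6.75 percentage points higher (-0.238 to 13.6). In each library 17 of the 18 were intermediate. At the 17 CpGs near the first exons, Dnmt3a KO was higher at 12 and lower at 5, with means of 46.5% in WT and 56.1% in Dnmt3a KO (9.57 percentage points, 2.38 to 16.6). A single intronic CpG at position 12837010 went the other way, with 23 of 33 reads methylated in WT and 4 of 14 in Dnmt3a KO. At Peg3 (chr7:6656603-6683132) WT covered 7 CpGs with a mean of 21.1%, and Dnmt3a KO covered 4 other CpGs with a mean of 28.8%. These are different sites in an intron and cannot be compared. In Dnmt TKO, 0 of 101 reads at Plagl1 and 0 of 33 at Peg3 were methylated, which at Peg3 allows up to 9.09%.

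Peg10 (chr6:4697306-4710514), a gene derived from a retrotransposon and needed in the placenta, shares its start region with Sgce. Its 16 shared CpGs averaged 32.3% ± 7.64 in WT and 33.8% ± 9.85 in Dnmt3a KO, differing by 1.45 percentage points (-3.70 to 6.75). Pooled reads went the other way, with 34.8% in WT and 32.6% in Dnmt3a KO (-2.26 percentage points). Of the 16 CpGs 11 were lower, and the median difference was -4.96 percentage points. The mean combined 2 stretches that moved apart. In the Peg10 exon, 13 CpGs averaged 35.5% in WT and 31.7% in Dnmt3a KO, and 11 of them were lower. In the Sgce exon upstream, 3 CpGs on 1 fragment averaged 18.7% in WT, with 7 of 38 reads methylated, and 42.7% in Dnmt3a KO, with 23 of 53. The median depth of these 3 CpGs was 12 reads in WT and 19 in Dnmt3a KO.

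**Figure D3:**
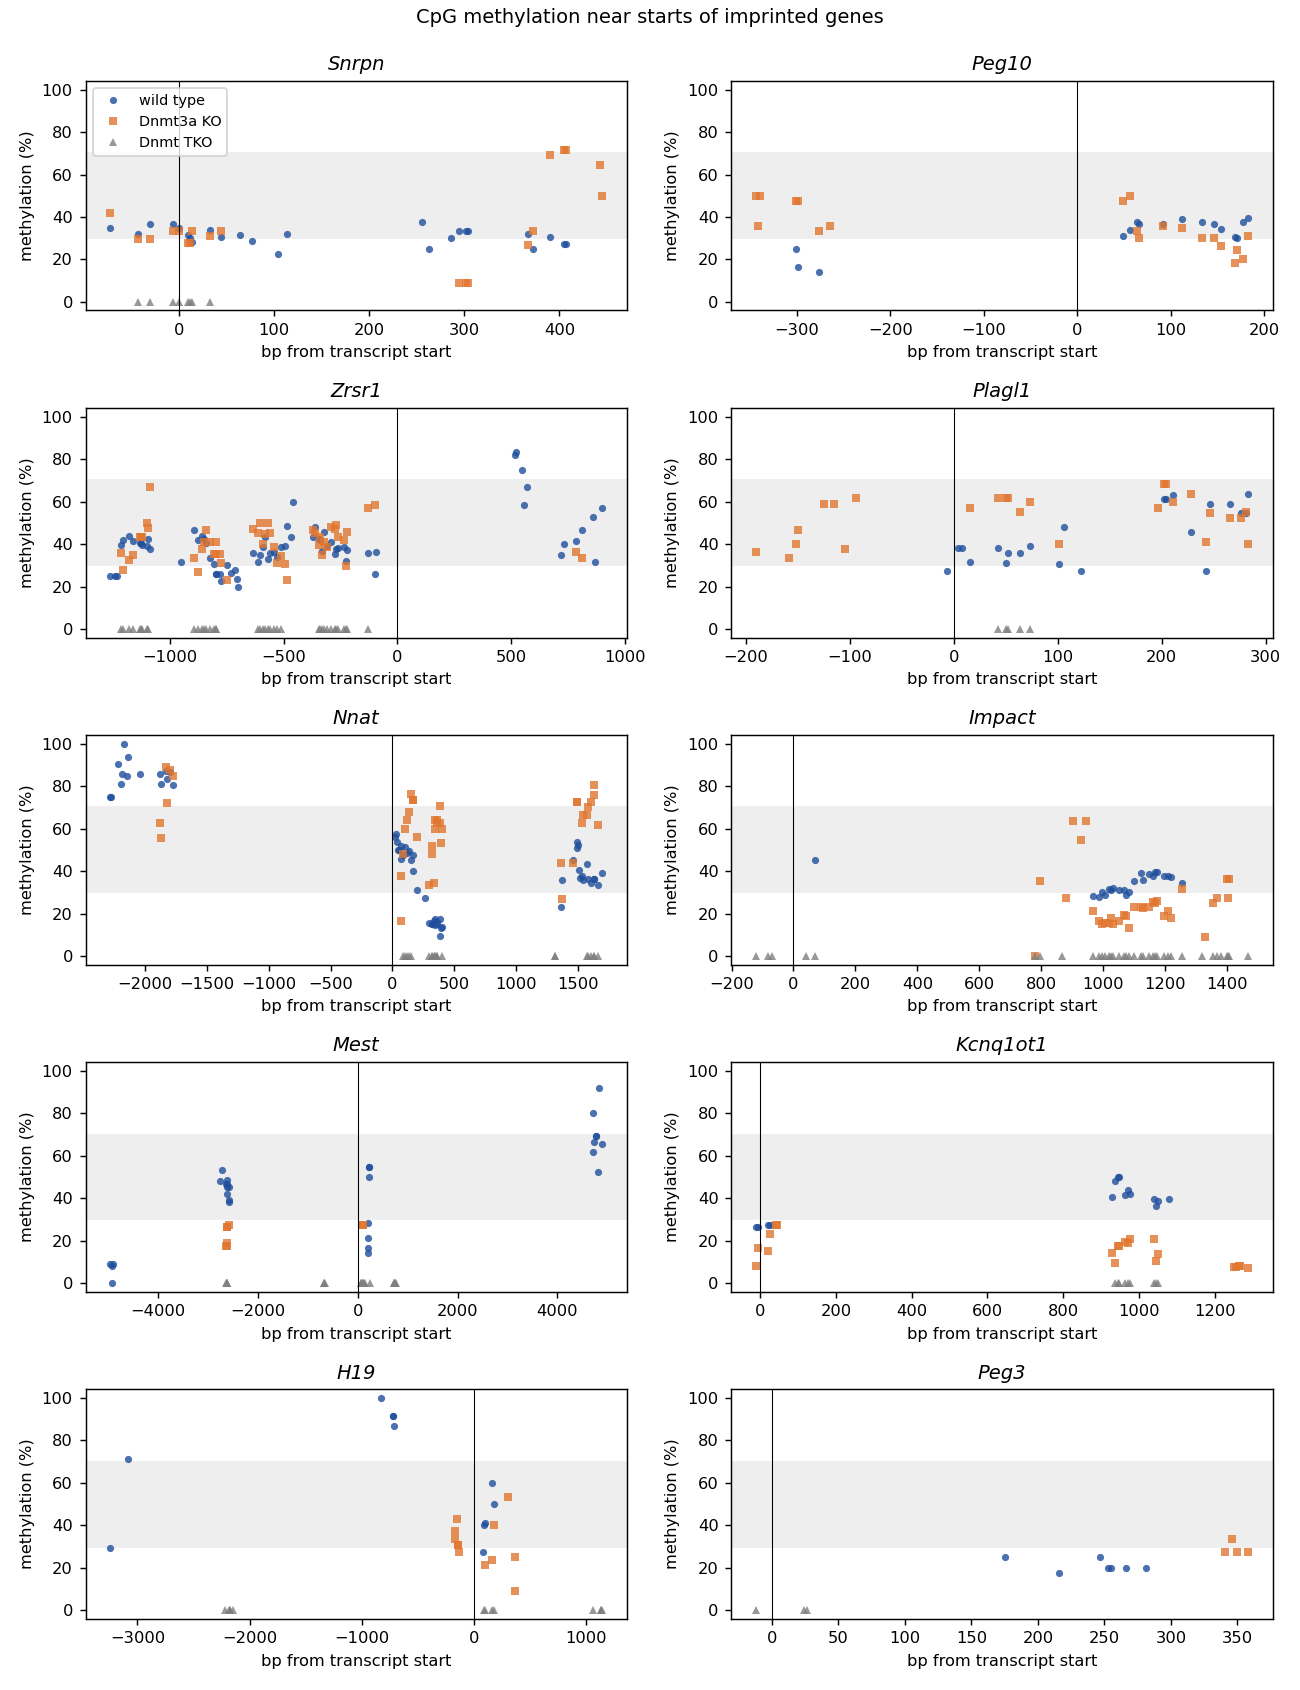
Methylation (%) of every CpG with more than 10 reads against its distance (bp) from 1 annotated start of each gene, positive in the direction of transcription, in wild type (blue circles), Dnmt3a KO (orange squares) and Dnmt TKO (grey triangles), with the 30 to 70% range shaded. CpGs over 5000 bp from the plotted start are left out, scales differ between panels, and the Dnmt TKO points all lie at 0.

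Nnat, which encodes the small membrane protein neuronatin and lies inside an intron of Blcap (Nnat, chr2:157385814-157388258), had more methylation in Dnmt3a KO than in WT. Over 41 shared CpGs on 8 fragments the mean was 40.1% ± 22.8 in WT and 61.1% ± 16.1 in Dnmt3a KO, differing by 21.0 percentage points (17.2 to 24.7), and 34 CpGs were higher. The profile in WT was stepped. Upstream, from position 157383931 to 157384039 in a Blcap exon, 6 CpGs read 84.1% in WT and 75.2% in Dnmt3a KO. Just behind the first starts, from 157385883 to 157386010, 10 CpGs read 45.9% and 57.4%. From 157386108 to 157386213 WT had a trough in which all 12 CpGs were under 20%, with a mean of 15.0%, whereas Dnmt3a KO read 55.4% there (40.4 percentage points, 33.9 to 46.7). These 12 CpGs are all but the first of the 13 marked in the Nnat sequence printed above. From 157387180 to 157387478, 13 CpGs read 38.7% and 62.8%. In Dnmt TKO, 0 of 329 reads at 22 Nnat CpGs were methylated.

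To ask which single CpGs differed between the libraries, methylated and unmethylated reads were compared by a two-sided Fisher's exact test at each of the 631561 shared CpGs. A CpG was called at a Benjamini-Hochberg adjusted p under 0.05 and a difference of at least 20 percentage points. The test compares 2 libraries and not the genotypes. Of the 178 imprinted CpGs, 0 were called lower, beside 1.64% of all shared CpGs, and 11 (6.18%) were lower at an unadjusted p under 0.05, beside 6.998% of all shared CpGs. In the other direction 11 (6.18%) were called higher, beside 0.0304% of all shared CpGs, and all 11 belonged to Nnat. These averaged 20.6% in WT and 65.9% in Dnmt3a KO. In the trough lay 8 of them, and the 3 others lay between positions 157387424 and 157387448. CpGs on 1 fragment are read together, so the 11 calls are not separate observations. With 11 reads drawn per CpG from each library, 0 of the imprinted CpGs were called higher. The CpG with the largest increase, at position 157386199 of chromosome 2, had 11 of 63 reads methylated in WT (17.5%) and 12 of 17 in Dnmt3a KO (70.6%, adjusted p = 0.00807, Fisher's exact test). Of the 11 CpGs at an unadjusted p under 0.05 and lower, 10 belonged to Impact and 1 to Plagl1. At 8 of the 14 CpGs of Kcnq1ot1 the unadjusted p was also under 0.05, but the smallest adjusted p there was 0.168.

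Impact, Mest and Kcnq1ot1 had lower means in Dnmt3a KO, from intermediate levels in WT to 22.4% or less. Impact (chr18:13130761-13151457) encodes a regulator of the translation kinase GCN2, and its 22 shared CpGs, in an intron at 967 to 1253 bp from the start, were the deepest of the set. WT had 2721 reads there and Dnmt3a KO 1271, with means of 33.8% ± 4.14 and 20.1% ± 4.52. The difference was -13.7 percentage points (-16.5 to -10.9), and all 22 CpGs were lower. In WT 18 of them were intermediate and in Dnmt3a KO 1 was. Dnmt3a KO also covered 12 CpGs of this intron that WT did not, at 779 to 1404 bp and with 11 to 17 reads each, which averaged 33.8% (0 to 63.6%), and 6 of them were intermediate. In Dnmt TKO, 0 of 537 reads at the same 22 CpGs were methylated.

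Mest (chr6:30673547-30698457) encodes an enzyme-like protein of the hydrolase fold family. All 6 shared CpGs lay on 1 fragment in an intron, 1917 to 1964 bp behind an annotated start, and are those printed above. That start lies upstream of the main start, from which the 6 CpGs lie at -2627 to -2580 bp. They averaged 44.7% ± 3.52 in WT and 22.4% ± 4.87 in Dnmt3a KO, differing by -22.3 percentage points (-32.6 to -10.4), with 180 and 91 reads. All 6 were intermediate in WT and 0 in Dnmt3a KO. WT covered 29 CpGs in all, and these varied with position: 4 CpGs near an upstream start read 6.63%, 10 in the intron 45.3%, 7 in the exon behind the main start 34.3%, and 8 farther into the gene 69.5%. In the exon behind the main start Dnmt3a KO covered 2 other CpGs, with a mean of 27.3%. The CpGs behind the main start of Mest were thus not compared between the libraries. In Dnmt TKO 0 of 277 reads over the gene were methylated.

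Kcnq1ot1 is a noncoding RNA that silences neighbouring genes in cis and starts within Kcnq1. Its 14 shared CpGs averaged 38.5% ± 8.57 in WT and 16.1% ± 4.45 in Dnmt3a KO, differing by -22.4 percentage points (-27.7 to -16.7), and all 14 were lower. Most of the difference lay 930 to 1049 bp into the transcript, the stretch printed above, where 10 CpGs read 43.1% and 16.2%. At 4 CpGs around the start, the means were 27.0% and 15.9%. WT had 10 intermediate CpGs of the 14, Dnmt3a KO had 0, and in Dnmt TKO 0 of 131 reads at 9 CpGs were methylated.

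H19, a noncoding RNA with a paternal mark (chr7:149761434-149764048), was thinly covered. The 5 shared CpGs averaged 46.5% ± 9.99 in WT and 26.1% ± 8.45 in Dnmt3a KO, differing by -20.4 percentage points (-33.7 to -5.58) over 100 and 68 reads, and all 5 were intermediate in WT and 1 in Dnmt3a KO. Of these, 3 lay in the H19 exon, at 51 to 135 bp from the nearest start. The 2 others lay 4804 and 4806 bp downstream of another annotated start within the gene. They are intergenic, 6409 and 6411 bp from the most upstream start. Upstream of H19, WT read 92.4% at 4 CpGs between -832 and -714 bp and 50.3% at 2 CpGs at -3243 and -3087 bp, and no Dnmt3a KO CpG with more than 10 reads lay between these positions. Dnmt3a KO read 31.2% over 12 CpGs between -171 and 318 bp. The sperm mark upstream of H19 was thus not compared between the libraries. In Dnmt TKO, 0 of 170 reads at 13 CpGs were methylated.

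Against other sites of like WT level, the imprinted CpGs had a smaller mean difference between the libraries, in which genes of opposite direction offset each other. The 142 shared imprinted CpGs with 30 to 70% in WT averaged 39.9% in WT and 39.8% in Dnmt3a KO (-0.116 percentage points, -1.92 to 1.70). The 53731 other CpGs of this WT range averaged 53.4% in WT and 35.2% in Dnmt3a KO (-18.2 percentage points). Choosing CpGs by their WT value fixes that value in part, in both sets, and the other CpGs lay higher within the range. Of the imprinted CpGs 0 were called lower and 3 higher, beside 8.5% and 0.141% over all shared CpGs of the range, and 10 were lower at an unadjusted p under 0.05 (7.04%, beside 32.2% of the other CpGs). Nnat carried part of this as well. Without it, the difference of the imprinted CpGs was -3.54 percentage points.

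The same comparison was made over genes. A mean over shared CpGs could be formed for 16895 genes with at least 5 such CpGs, among them 8 of the imprinted genes. Mest, H19 and Impact were lower by at least 10 percentage points, 3 of 8, beside 11.5% of all genes, and Nnat was higher by at least 10, beside 0.16% of all genes. The median difference was 2.06 percentage points over the 8 and -0.519 over all genes. Most genes are nearly unmethylated, and the 685 other genes whose WT mean lay in the range of the 8 (31.8 to 47.8%), a comparison added after seeing the data, are closer in level. Of these, 61.2% were lower by at least 10 percentage points and 1.02% higher by at least 10, with a median difference of -11.7. A higher mean in Dnmt3a KO was found at 5 of the 8 imprinted genes (Snrpn, Peg10, Plagl1, Nnat and Zrsr1) and at 15 of the 685 (2.19%). For Peg10 this holds for the mean over CpGs only, since its pooled reads were lower in Dnmt3a KO (-2.26 percentage points). At least 50% of the shared CpGs were intermediate at 8 of the 8 in WT and 4 in Dnmt3a KO, and at 26.9% and 5.11% of the 685 genes. Other genes higher by at least 10 percentage points numbered 26, of which 13 lay on chromosome 9. Only Blcap and AL672259.1 among these 26 hold Nnat CpGs in their windows, and both hold all 41. Windows of neighbouring genes share CpGs, and genes are not independent replicates.

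**Figure D4:**
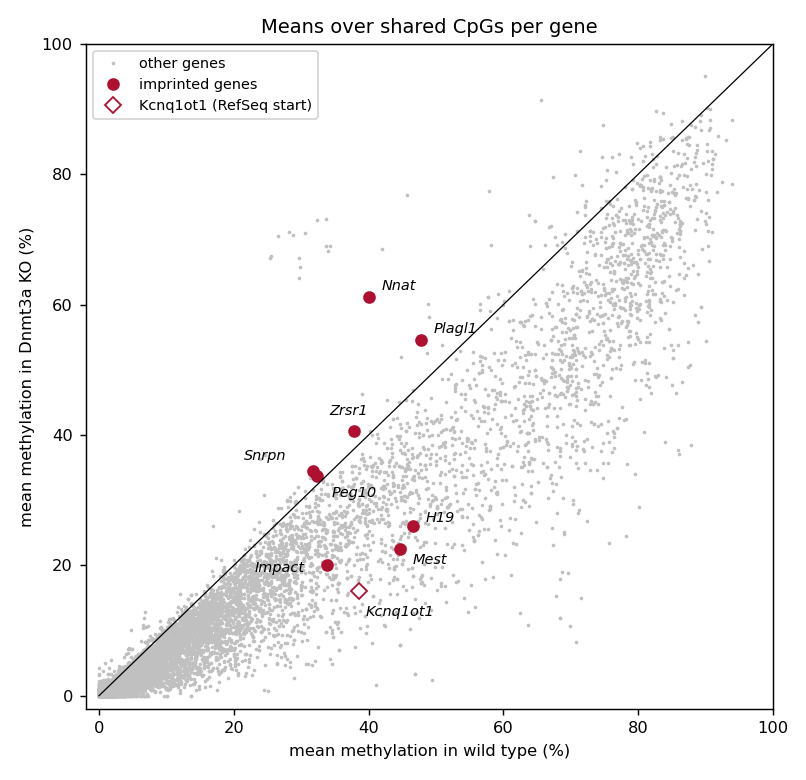
Mean methylation (%) over shared CpGs in Dnmt3a KO against wild type for 16895 genes with at least 5 shared CpGs, with the 8 imprinted genes in red, Kcnq1ot1 as an open diamond and the line of equal values. Most genes of intermediate level lie under the line, and Nnat, Plagl1, Zrsr1, Snrpn and Peg10 lie on or above it.

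Other imprinted genes were counted from 2 further lists, leaving out CpGs already used. Of 16 further genes with a germline mark, 14 had at least 5 shared CpGs. Their median WT level was 18.6% and their median difference -1.99 percentage points. Among them 2 were lower by at least 10 and 0 higher. Igf2r (0.479%), Rasgrf1 (0.828%) and Zdbf2 (0.505%) were nearly unmethylated in WT with 0 intermediate CpGs, and so could hardly be lower. Meg3, a noncoding RNA with a mark from the sperm nearby, differed most, from 80.3% in WT to 63.0% in Dnmt3a KO. The other gene lower by at least 10 was Nap1l5, with 40.8% in WT and 26.5% in Dnmt3a KO (-14.3 percentage points). All 18 of its shared CpGs were intermediate in WT and 6 in Dnmt3a KO. Airn, a noncoding RNA that silences Igf2r, had the highest difference of the list (0.340 percentage points), at 40.3% in WT and 40.6% in Dnmt3a KO, and of its 19 shared CpGs 19 were intermediate in WT and 16 in Dnmt3a KO. Of 20 further genes of imprinted clusters, 17 had at least 5 shared CpGs, with a median WT level of 2.29% and a median difference of -0.507 percentage points. In this list 2 were lower by at least 10, Slc22a18 the most with a difference of -27.1, and the highest difference was 0.144 at Peg12. No gene of either list was higher by at least 10 percentage points, as Nnat was.

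Position within the window went along with the direction of the difference. Within 500 bp of a start, 96 shared CpGs of 6 genes averaged 35.8% in WT and 44.5% in Dnmt3a KO, and at 500 to 1000 bp 39 CpGs of 4 genes averaged 37.4% and 44.9%. At 1000 to 2000 bp, 41 CpGs of 4 genes averaged 44.8% and 34.2%. Different genes fill these intervals, since all Mest and most Impact CpGs lay beyond 1000 bp, so that distance and gene cannot be told apart. Most shared Nnat CpGs lay within 1000 bp, where Nnat differed by 26.1 percentage points. Zrsr1 had shared CpGs on both sides of 1000 bp, and differed by 2.90 within 1000 bp and by 2.69 over its whole window.

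ZFP57 binds the word TGCCGC when its CpG is methylated. The word was searched on both strands within 500 bp of each annotated start of the imprinted genes in mm9. It was found at any start of 7 of the 10 genes. Genes with more starts have more windows, and no share per gene was counted for other genes. Counted per start, it was found in 27 of 47 windows of these genes (57.4%), many of which overlap, and in 33.3% of 70021 windows of the same length around distinct starts of protein-coding genes. Mest had 10 matches around its main starts, Nnat 6, Plagl1 up to 6, Snrpn 5, Peg3 3, Zrsr1 2 and Peg10 1. Impact, H19 and Kcnq1ot1 had 0, which says only that these letters are not in those windows. The shared Mest and Impact CpGs lay outside the searched windows. Among all shared CpGs, also those beyond these windows, only 8 lay in a match, with means of 29.5% in WT and 41.8% in Dnmt3a KO. The 170 outside a match averaged 38.7% and 42.0%. Of the 8, 1 lay in the Impact intron beyond the searched windows, at 35.5% in WT and 23.1% in Dnmt3a KO. Of these 8 CpGs 3 belonged to Nnat (22.3% and 54.1%), and the 5 others averaged 33.9% in WT and 34.5% in Dnmt3a KO.

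In Dnmt TKO, 103 CpGs of the imprinted genes were covered in all 3 libraries. They averaged 35.9% in WT and 39.2% in Dnmt3a KO, and 0 of 1901 reads were methylated in Dnmt TKO, which allows up to 0.158%. Over all covered CpGs of that library the mean was 0.0911%.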

How the data were processed

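Genomic DNA of WT, Dnmt3a KO and Dnmt TKO ES cells was cut with MspI, size-selected, bisulphite-converted and sequenced by the authors. Separate libraries were made for 2 ranges of insert size, and 1 table was deposited per genotype. Reads were aligned to mm9 with QuasR according to the study's methods, and the submitters' processing notes name Trim Galore and Bowtie. The authors removed CpGs that overlap SNPs, and deposited 2 counts per CpG, total reads and methylated reads. The authors' fraction equals methylated counts divided by read counts. From these counts, CpGs with more than 10 reads within 5000 bp of any GENCODE vM1 start were used, and positions were checked against the mm9 sequence. Means over CpGs were set beside pooled reads. Intervals were Wilson (pooled reads), Newcombe (differences, placed around the mean difference) and exact binomial (shares), at 95%. Upper limits at 0 use 3 counts. Fisher's exact test (two-sided, Benjamini-Hochberg over all shared CpGs) was tested on simulated data. Depth limits single CpGs: a median of 17 reads in Dnmt3a KO gives a coarse level.

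All 10 genes are named. Single CpGs named are those nearest to a start, those with the largest called change, or ones chosen after their values were seen. Sequences were cut to at most 240 bases around the densest shared CpGs, and stretches in annotated UTR exons (Snrpn, Plagl1) were left out. The members and lists were chosen with earlier results of these data known. Alternatives were the read minimum, the window, the intermediate range, thinning to 11 reads, weighting, highest coverage and single genes. Tests and sums used scipy 1.17.1 and numba 0.67.0 in Python 3.11.15, tables pandas 2.3.3 with numpy 2.4.6, and plots matplotlib 3.10.9.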

Additional observations from a re-analysis of the deposited data

How the results depend on the processing

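With 1 library per genotype no library could be left out, and no spread between cultures was measured. No paired analysis was possible because the labels give 1 library per genotype and no replicate numbers. Alternatives with Kcnq1ot1 and without Nnat were chosen after seeing the data. The share of intermediate CpGs in WT was 78.3% with more than 20 reads, 49.6% for a range of 35 to 65%, 81.0% for 25 to 75% and 51.5% with 11 reads drawn per CpG; in Dnmt3a KO it was 73.7% within 1000 bp, 55.9% without Zrsr1, 46.7% and 81.2% for the 2 ranges and 54.1% with 11 reads. At shared CpGs these shares were in WT 57.3% and 87.6% for the 2 ranges, 53.9% with 11 reads and 87.6% without Nnat, and in Dnmt3a KO 74.1% within 1000 bp, 51.6% without Zrsr1, 44.4% and 78.1% for the 2 ranges and 53.4% with 11 reads. The shared mean in WT was 36.2% with more than 20 reads and 36.2% within 1000 bp, and 39.4% as a mean over genes. In Dnmt3a KO it was 40.3% with more than 20 reads, 44.6% within 1000 bp, 38.0% from pooled reads, 36.6% over genes, 40.1% with Kcnq1ot1 and 36.2% without Nnat. The difference was 8.37 percentage points within 1000 bp, 0.541 from pooled reads and 1.78 with Kcnq1ot1, and turned negative over genes (-2.74) and without Nnat (-1.50). Calls of higher CpGs numbered 0 with 11 reads and 0 without Nnat. The difference at CpGs with 30 to 70% in WT was 1.25 with more than 20 reads, 3.55 within 1000 bp, 1.10 for 20 to 80% and -3.54 without Nnat. The sign of the mean difference over all shared imprinted CpGs thus depends on Nnat and on the weighting, and that over CpGs with 30 to 70% in WT also turned with the read minimum, the window and the range; the cause was not tested. In the 46 other combinations of result and setting, means and shares stayed within the 95% interval of the reported value, 0 CpGs were called lower, and 9 to 11 were called higher. H19, Mest and Snrpn had no shared CpGs over 20 reads.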
